A study of Mus musculus with 9 samples.

Results

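KOb and KOa are the 2 populations of immature red cell precursors found in the bone marrow of mice whose Trim28 gene had been deleted, and the comparison of KOb with KOa is described here across all genes. The members are the genes for which the authors' deposited table holds a completed test of KOb against KOa, which were 10468 of the 23285 genes listed. For the others, 12669 had no test and 148 had too little data, by the table's own codes. All mice were on a C57BL/6 background and carried 2 floxed Trim28 alleles. KOa and KOb came from mice of the genotype TRIM28(flox/flox):Mx1Cre, given 5 injections of poly(I:C) on alternate days and analysed 2 weeks later. KOa cells carried the surface phenotype CD71(hi)TER119+ and are labelled modestly deleted, with 5 to 8% of the gene undeleted and 26% of the mRNA left, per the series description. KOb cells were CD71(hi)TER119- and are labelled severely deleted, with 1 to 4% of the gene undeleted and 18% of the mRNA left. FFa, the control, held CD71(hi)TER119+ cells of TRIM28(flox/flox) mice without Cre, and whether these mice received poly(I:C) is not stated in the labels used here. Each group had 3 libraries. The Mx1 promoter that drives Cre responds to interferon, so poly(I:C) starts deletion in blood cells of all lineages and in other tissues. FFa shares its gate with KOa and not with KOb. Between KOb and KOa the sort gate and the degree of deletion differ together and cannot be told apart.

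TRIM28, also called KAP1, is a corepressor that KRAB zinc finger proteins carry to chromatin, where it recruits the H3K9 methyltransferase SETDB1, HP1 proteins and histone deacetylases. Erythroblasts begin as large dividing cells rich in ribosomes. As they mature they take up iron through CD71, the transferrin receptor, fill with hemoglobin, gain the TER119 antigen, condense their chromatin and shed organelles. Ribosome production falls along this path, while membrane skeleton and heme genes are strongly transcribed.

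FPKM stands for fragments per kilobase of transcript, relative to the number of mapped fragments, so a level corrected for length. How the groups were scaled to each other is not stated in the sources used here. All FPKM values below come from the authors' deposited table, which gives 1 value for each gene in each group. These values pool the 3 libraries, so no SD can be given and the depth per library is unknown. Log2 ratios are the authors' log2 of KOb over KOa, so a positive value means a higher level in KOb, and the error after ± is the standard error implied by the deposited test statistic. A gene is called when its q in the authors' deposited table was below 0.05. Of the tested genes 16.2% were called, 10% as higher in KOb and 6.19% as lower, and every count of a gene list below is to be read against these shares. The median log2 ratio over all tested genes was 0.05. Separate animals per library are not named in the labels, and the tests therefore measure the spread between these libraries, which may be technical. In sorted bulk samples, fewer cells of a kind and less RNA per cell cannot be told apart.

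Trim28 itself (chromosome 7, 13024152 to 13031032 of mm10) stood at 26.0 FPKM in FFa, 6.64 in KOa and 4.76 in KOb. KOa held 25.5% and KOb 18.3% of the control level. Between them the log2 ratio was -0.48 ± 0.32, and its q of 0.0535 (authors' deposited table) was just above the threshold, so a difference in Trim28 between the mutant groups was not shown. Markers of immature red cells were abundant in both. Tfrc, which encodes CD71, was at 62.5 FPKM in KOa and 61.8 in KOb (log2 ratio -0.02 ± 0.29, not called). Gata1 was at 138 and 105 FPKM and Klf1 at 80.6 and 62.0, neither called. The pan-leukocyte gene Ptprc was at 1.96 and 2.22 FPKM, and was not called.

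In KOb, 1052 genes were higher than in KOa and 648 were lower. The changes were moderate: the median log2 ratio was 0.83 among the higher genes and -0.66 among the lower ones, and 343 of the higher and 102 of the lower genes differed by at least 2-fold with a value above 0 in each group. The higher genes had a median of 2.73 FPKM in KOa and 5.03 in KOb, and the lower genes 20.7 FPKM in KOa and 12.7 in KOb. Over all tested genes the medians were 2.90 in KOa and 3.26 in KOb, so the higher genes lay near a typical level and the lower genes above it. Of the called genes 14 were listed at 0 in one mutant group, 3 of them in KOa and 11 in KOb, and none of these reached 1 FPKM in the other group (the highest was 0.767).

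The calls varied with the FPKM of a gene in FFa, whose libraries took no part in the comparison. FFa shares the gate of KOa and not that of KOb, so level and gate cannot be told apart in this sorting. Of 3828 tested genes between 1 and 5 FPKM in FFa, 509 (13.3%) were higher in KOb and 94 (2.46%) lower. Of 426 genes above 100 FPKM, 33 (7.75%) were higher and 110 (25.8%) lower. The median log2 ratio went from 0.15 in the former range to -0.23 in the latter, through 0.02 between 5 and 20 FPKM and -0.15 between 20 and 100. The deposited p-values are smaller than those that a standard normal distribution gives for the deposited statistic. With normal p-values and Benjamini-Hochberg adjustment over 10424 genes, 175 genes (1.68%) passed, 122 (1.17%) as higher and 53 (0.508%) as lower, and 162 of the 175 were among the 1700 called. Its split by level differed from that of the deposited q: it gave 40 higher and 5 lower between 1 and 5 FPKM in FFa, 21 higher and 11 lower between 20 and 100, and 19 higher and 23 lower above 100. This stricter result is called the normal reading below.

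**Figure D1:**
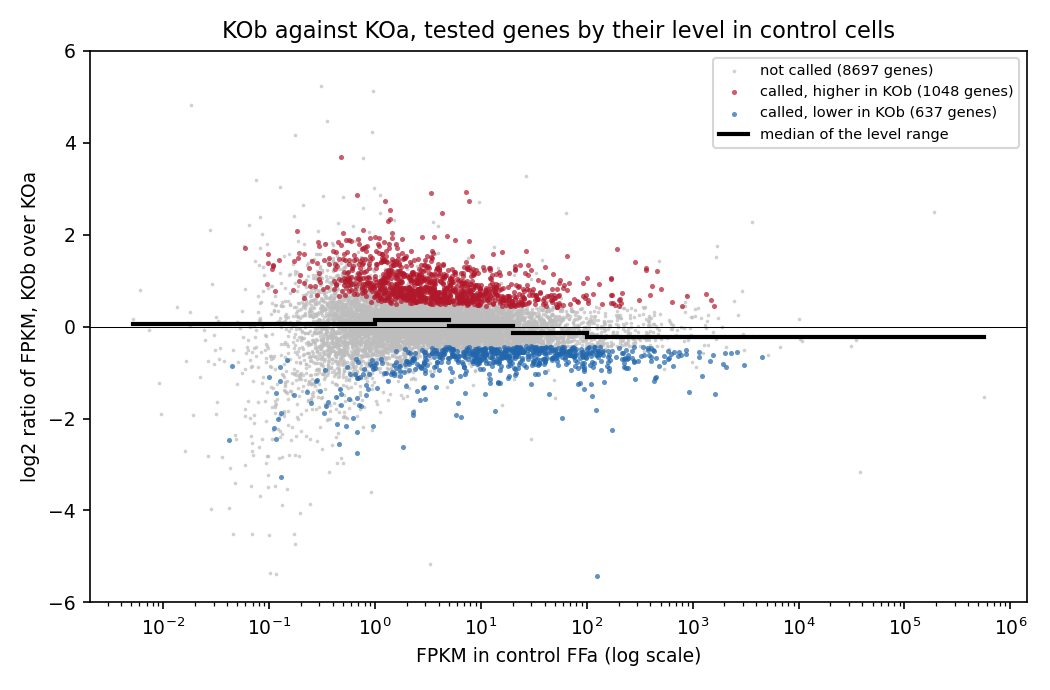
Log2 ratio of KOb over KOa against the FPKM in control FFa (log axis) for tested genes above 0 in all 3 groups. Each point is 1 gene (red, called higher in KOb; blue, called lower; grey, not called), and black bars are medians of the level ranges, which lie at 0.15 between 1 and 5 FPKM and at -0.23 above 100 FPKM.

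**Figure D2:**
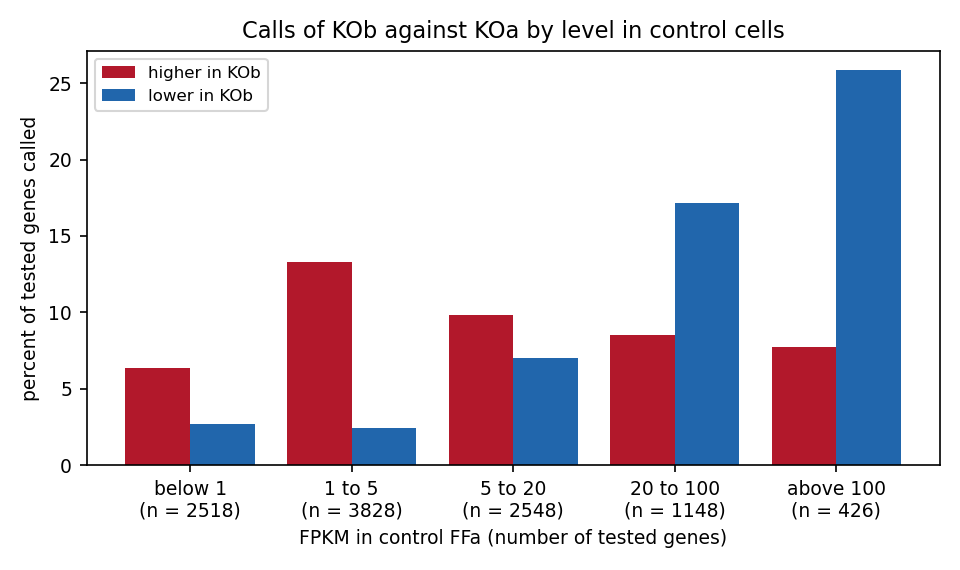
Percent of tested genes called higher (red) or lower (blue) in KOb than in KOa, by the FPKM in control FFa, with the number of tested genes under each pair of bars. Higher calls peak at 13.3% between 1 and 5 FPKM and lower calls reach 25.8% above 100 FPKM.

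The largest rise was that of Hemt1 (chromosome 15, 74819076 to 74824436), a gene expressed in blood cells, which went from 0.316 FPKM in KOa to 4.07 in KOb and stood at 0.478 in FFa (log2 ratio 3.69 ± 1.02). Its neighbour Gml (chromosome 15, 74813455 to 74818815), which encodes a GPI-anchored protein, was listed at 0 in FFa, 0.534 in KOa and 2.68 in KOb (2.33 ± 0.81). The glutathione transferase gene Gstp1 was 7.59-fold higher, at 7.26 FPKM in FFa, 4.66 in KOa and 35.3 in KOb (2.92 ± 0.36). Hmga1, an architectural chromatin protein of proliferating cells, went from 0.544 to 4.1 FPKM (2.91 ± 1.36), Dctd, a deoxycytidylate deaminase that supplies thymidylate, from 0.388 to 2.81 (2.86 ± 0.81), and Adi1, of the methionine salvage pathway, from 0.777 to 4.52 (2.54 ± 0.55). Atp6v0c, which encodes the proton-binding ring subunit of the vacuolar ATPase, went from 1.52 to 10.1 FPKM (2.74 ± 0.55) and was at 7.8 in FFa. Fam195a (2.72), Gm9320 (2.47), 1810013D10Rik (2.34), Abhd14a (2.31) and Fam203a (2.11) completed the 12 largest log2 rises. Hmga1, 1810013D10Rik, Gml, Abhd14a and Fam203a were lost with the normal reading.

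Among the falls Fam55b (chromosome 9, 48318004 to 48340898) stood apart. It went from 47.8 FPKM in KOa (FFa, 124) to 1.12 in KOb, 42.8-fold lower in KOb than in KOa (log2 ratio -5.42 ± 0.38). The second largest fall was in Xkrx, of the XK family of membrane proteins, from 9.25 to 1.51 FPKM (-2.61 ± 0.43), with 1.84 in FFa. Tac2, a tachykinin precursor gene, declined across the groups, from 57.9 FPKM in FFa to 5.68 in KOa and 1.44 in KOb (-1.98 ± 0.77). Several genes were high in KOa alone, with similar values in FFa and KOb. Zfp488, a zinc finger gene, was at 2.31 FPKM in FFa, 7.34 in KOa and 2.02 in KOb (-1.86 ± 0.39). The pseudogene Olfr856-ps1 was at 6.57, 25.8 and 6.65 (-1.96 ± 0.34). The same shape was seen in 4932411L15 (-1.93), 4930470H14Rik (-1.84), A130077B15Rik (-2.16) and Olfr613 (-1.71). The other 3 of the 12 largest falls were the histone genes Hist1h2br, Hist1h2af and Hist1h3e, taken up with their family below. Tac2 and Olfr613 were lost with the normal reading.

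Ribosome biogenesis had the median furthest from 0 of the 42 gene lists examined. The list holds nucleolar genes that transcribe, modify, cut and assemble ribosomal RNA. All 52 members were tested, 43 were higher in KOb, 9 were not called and 0 were lower, and 49 had a positive log2 ratio (median 1.02, against 0.05 over all tested genes). With the normal reading 12 were higher and 0 lower. The median level of the members was 3.24 FPKM in FFa, 3.19 in KOa and 5.77 in KOb, so KOa lay at the level of the control and KOb above both.

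Within that list the RNA polymerase I subunit gene Polr1b was at 0.502 FPKM in FFa, 0.426 in KOa and 1.74 in KOb (log2 ratio 2.03 ± 0.52). Wdr12, a partner of Pes1 and Bop1 in assembly of the large subunit, was at 1.0, 0.870 and 3.36 FPKM (1.95 ± 0.47). Rrp9, a component of the U3 particle that cuts the ribosomal RNA precursor, was at 0.688, 0.503 and 1.87 (1.90 ± 0.72). In each of these genes FFa and KOa were close to each other and KOb stood well above them. Nop16 (1.64 ± 0.48), Heatr1 (1.62 ± 0.43), Ddx10 (1.46 ± 0.40) and Pno1 (1.60 ± 0.33) also rose. The abundant members rose as well: Npm1, which encodes nucleophosmin, from 40.0 to 98.0 FPKM (1.29 ± 0.30), Nhp2, a subunit of the pseudouridine-guiding H/ACA particle, from 19.7 to 48.9 (1.31 ± 0.28), and Nop58 of the methylating C/D particle from 14.4 to 32.7 (1.19 ± 0.31). Of the genes named in these sentences, Rrp9 was lost with the normal reading.

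**Figure D3:**
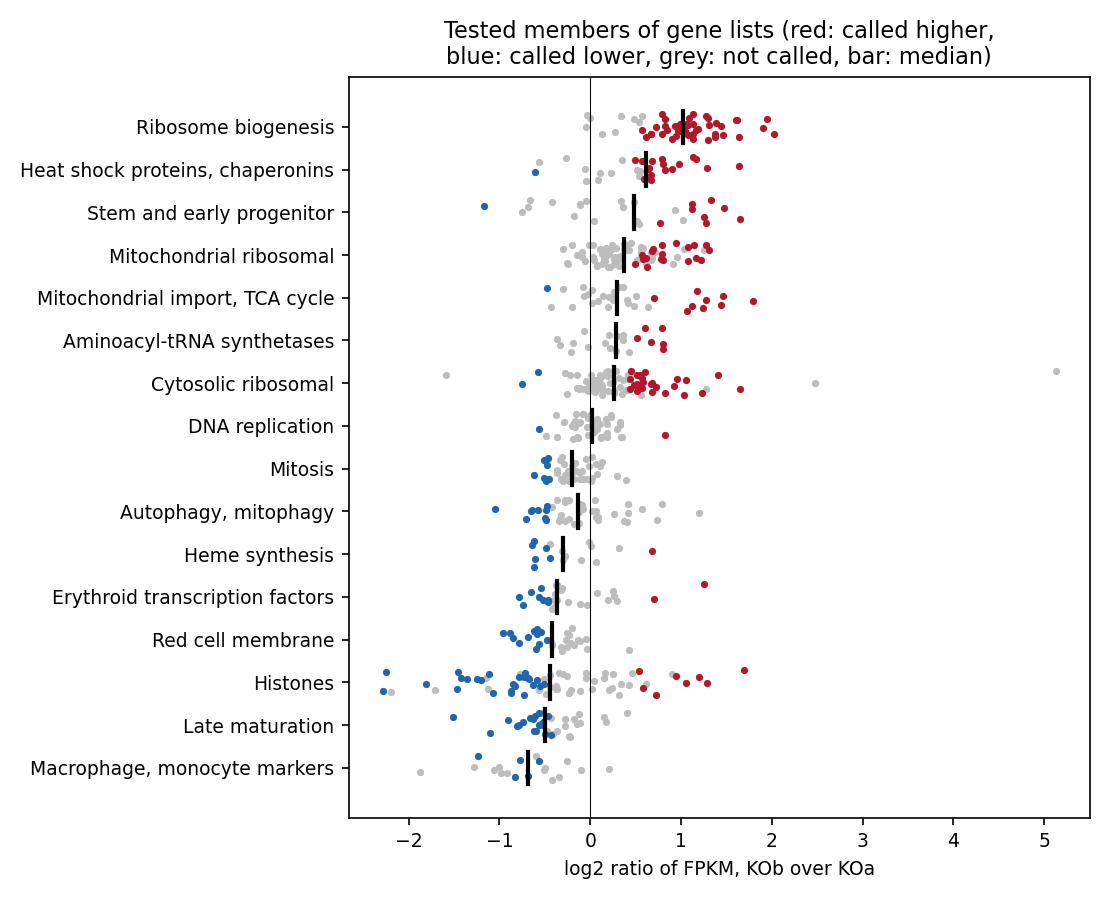
Log2 ratios of KOb over KOa for the tested members of 16 gene lists, 1 point per gene (red, called higher; blue, called lower; grey, not called), with black bars at the list medians. Ribosome biogenesis genes sit to the right, with a median of 1.02, and late maturation genes to the left, with a median of -0.50.

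Most chaperone genes were higher in KOb too. Of 30 tested heat shock proteins, chaperonin subunits and co-chaperones, 18 were higher and 1 lower (median log2 ratio 0.61, 3 and 0 with the normal reading). The mitochondrial folding machine led the list. Hspd1 (HSP60) was at 3.44 FPKM in FFa, 3.65 in KOa and 11.4 in KOb (log2 ratio 1.64 ± 0.32), its partner Hspe1 (HSP10) at 48.3, 73.8 and 162 (1.13 ± 0.23) and Hspa9, the HSP70 of the mitochondrial matrix, at 6.78, 7.33 and 16.4 (1.16 ± 0.30). Among cytosolic members, the chaperonin subunit gene Cct6a rose by 1.28 ± 0.39 and Hsp90ab1 went from 72.6 to 129 FPKM (0.83 ± 0.28). Dnajb1, a stress-inducible HSP40, was the 1 lower member, at 61.1 FPKM in KOa and 40.2 in KOb (-0.60 ± 0.28). The inducible gene Hspa1a was not called, with 3.24 and 2.2 FPKM. Cct6a, Hsp90ab1 and Dnajb1 were lost with the normal reading.

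Mitochondrial protein supply showed the same direction in fewer genes. Of 76 mitochondrial ribosomal protein genes 19 were higher and 0 lower (median 0.37, 3 and 0 with the normal reading), led by Mrps18b (1.31 ± 0.54) and Mrpl23, which went from 6.09 to 14.7 FPKM (1.27 ± 0.34). Of 32 genes of mitochondrial protein import and the citric acid cycle, 9 were higher and 1 lower (median 0.29, 3 and 0 with the normal reading). Tomm40, the pore through which precursor proteins enter, went from 6.15 to 13.9 FPKM (1.18 ± 0.35), and the inner membrane channel gene Timm23 from 1.59 to 4.39 (1.46 ± 0.49). Genes of the respiratory chain and ATP synthase were near the background: 9 of 78 were higher and 2 lower, with a median of 0.04. Ndufs3 (0.85 ± 0.29), Ndufa10 (0.94 ± 0.31) and the ATP synthase ring gene Atp5g1 (1.17 ± 0.33) were higher, as was its paralog Atp5g2 (1.26 ± 0.40). Also higher were Mrps15 (1.17 ± 0.31) and Mrps18a (1.22 ± 0.33) of the ribosome, Tomm5 (1.79 ± 0.84) and Timm9 (1.44 ± 0.56) of the import path and the citric acid cycle gene Suclg2 (1.27 ± 0.55). With the normal reading Mrpl23, Mrps15, Mrps18a, Tomm40 and Atp5g1 were called among the genes named here.

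Cytosolic ribosomal protein genes were higher in 25 of 81 and lower in 2 (median log2 ratio 0.26, 9 and 1 with the normal reading), and the levels of leading members had another shape than those of the biogenesis genes. Rps14 was at 283 FPKM in FFa, 104 in KOa and 276 in KOb (log2 ratio 1.40 ± 0.22). Rps23 was at 361, 149 and 349 (1.23 ± 0.21) and Rpl15 at 26.7, 10.6 and 33.2 (1.65 ± 0.29). In these genes KOa was the low group, and KOb lay near the control. Rps19, a gene mutated in Diamond-Blackfan anemia, went the other way, with 136 FPKM in FFa, 245 in KOa and 146 in KOb (-0.75 ± 0.21). Many ribosomal protein genes have processed pseudogenes that can share their reads, so the value of a single member is uncertain.

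The deposited comparisons of each mutant group with FFa share that control and are given side by side. Of the ribosome biogenesis genes 1 was higher and 0 lower in KOa against FFa, where 22.1% of all tested genes were called (7.99% higher), and 42 were higher and 0 lower in KOb against FFa, where 28.0% were called (12.8% higher). The list medians were 0.01 and 1.03. Of the cytosolic ribosomal protein genes 18 were lower in KOa against FFa (14.1% of all tested genes) and 6 higher (median -0.23), while 4 were lower in KOb against FFa (15.2% of all) and 9 higher (median 0.09). For the red cell membrane list below, the medians were 0.04 in KOa and -0.52 in KOb, and for the late maturation list -0.06 and -0.65.

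**Figure D4:**
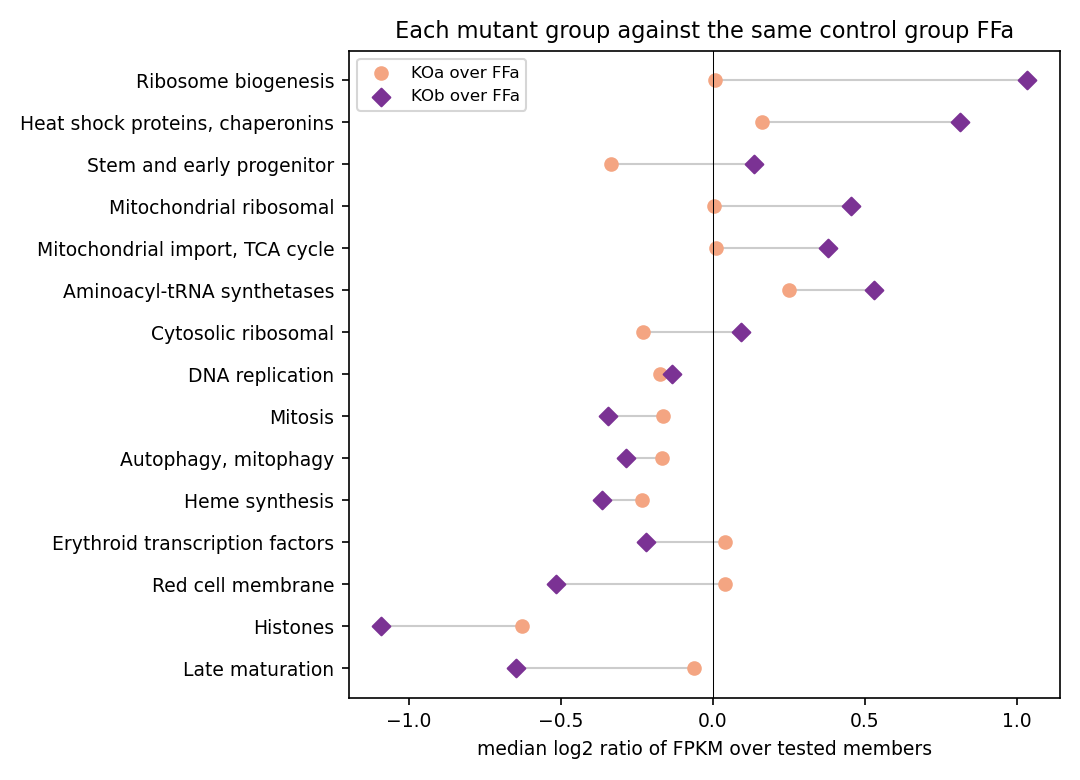
Median log2 ratio over tested members of 15 gene lists for KOa over FFa (circles) and KOb over FFa (diamonds); the same control serves both. For ribosome biogenesis the medians are 0.01 in KOa and 1.03 in KOb, and for the red cell membrane 0.04 and -0.52.

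Genes of late erythroid maturation included many that were lower in KOb. Of 35 tested members 19 were lower and 0 higher, and 32 had a negative log2 ratio (median -0.50). The list shares Slc4a1, Epb4.2, Rhag, Cpox, Tal1, Cat, Prdx2, Gclm, Bpgm, Bnip3l and Pim1 with other lists here, so these lists are not independent. Its median level was 191 FPKM in FFa, 176 in KOa and 108 in KOb. Ypel4, a yippee-family gene, was at 112 FPKM in FFa, 187 in KOa and 65.2 in KOb (log2 ratio -1.52 ± 0.23), and its relative Ypel3 at 453, 624 and 289.7 (-1.11 ± 0.31). Bpgm, whose enzyme makes 2,3-bisphosphoglycerate, was at 1926, 1015 and 581 (-0.80 ± 0.32). Ube2o, a ubiquitin enzyme that clears ribosomes and other proteins from reticulocytes, was at 235, 203 and 108 (-0.91 ± 0.31). For Ypel4 and Ypel3 KOa was above the control and KOb below it, and for Bpgm and Ube2o the levels went down from FFa through KOa to KOb. With the normal reading, Ypel3 and Ypel4 were lower and no other member was called. Macrophage markers moved in the same direction, with summed levels of 145 FPKM in KOa and 97.0 in KOb, and their part in these differences was not tested.

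Red cell membrane and blood group genes were lower in 13 of 29 and higher in 0, with 28 negative log2 ratios and a median of -0.42. Icam4, the Landsteiner-Wiener adhesion molecule, was at 95.0 FPKM in FFa, 117 in KOa and 60.3 in KOb (log2 ratio -0.96 ± 0.24), Epb4.9 (dematin, which bundles actin) at 90.1, 106 and 58.6 (-0.86 ± 0.30) and Ank1, the ankyrin that ties spectrin to the membrane, at 94.3, 114 and 66.0 (-0.79 ± 0.32). In these 3 genes KOa was the highest group and KOb the lowest. Kel (-0.69 ± 0.28), the palmitoylated skeleton protein gene Mpp1 (-0.59 ± 0.33) and Rhd (-0.47 ± 0.27) were lower too. The normal reading kept 1 member of the list, Icam4.

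Promoters of the membrane list are shown because a recognition sequence of GATA1, the main erythroid transcription factor, was more common there than in the other lists searched. RefSeq promoters (build GRCm38.p6) were matched to 7304 tested genes (69.8%), and the 250 bases before the start were searched for AGATAA on both strands (TTATCT is the same site on the other strand). The sequence was present in 6 of 19 matched membrane promoters (31.6%), in 38 of 462 promoters of all genes lower in KOb (8.23%) and in 420 of all 7304 (5.75%). Among the other 7 lists searched the mitochondrial ribosomal proteins had the highest share, 11 of 62 (17.7%), a list in which 0 genes were lower in KOb. The other erythroid lists had 1 carrier each: 1 of 21 for late maturation (4.76%), 1 of 18 for erythroid transcription factors (5.56%) and 1 of 11 for heme synthesis (9.09%). A further sequence searched, CCACACCC, was present in 1 of 19 membrane promoters (5.26%) and in 265 of all 7304 (3.63%). The 4 carriers that were lower in KOb follow, with the match in capitals; the other 2 carriers, Tpm3 and Cd44, were not called.
Icam4 (chr9:21029182-21029431, plus strand): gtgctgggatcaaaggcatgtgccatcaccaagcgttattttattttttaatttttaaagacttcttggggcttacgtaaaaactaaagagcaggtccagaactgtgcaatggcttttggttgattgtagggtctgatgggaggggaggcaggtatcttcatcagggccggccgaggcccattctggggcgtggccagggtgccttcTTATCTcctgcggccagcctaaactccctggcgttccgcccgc
Kel (chr6:41704326-41704575, minus strand): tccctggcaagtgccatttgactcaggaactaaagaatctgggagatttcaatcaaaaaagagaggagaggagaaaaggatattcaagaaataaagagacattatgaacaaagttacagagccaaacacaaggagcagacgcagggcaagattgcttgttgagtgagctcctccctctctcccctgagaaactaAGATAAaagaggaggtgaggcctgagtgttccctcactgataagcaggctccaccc
Mpp1 (chrX:75131017-75131266, minus strand): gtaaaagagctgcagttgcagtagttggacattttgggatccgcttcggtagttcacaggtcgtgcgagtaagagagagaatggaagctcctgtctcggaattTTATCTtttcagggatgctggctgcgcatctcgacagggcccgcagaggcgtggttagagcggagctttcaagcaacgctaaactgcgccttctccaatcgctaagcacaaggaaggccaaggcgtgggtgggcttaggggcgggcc
Rhd (chr4:134864286-134864535, plus strand): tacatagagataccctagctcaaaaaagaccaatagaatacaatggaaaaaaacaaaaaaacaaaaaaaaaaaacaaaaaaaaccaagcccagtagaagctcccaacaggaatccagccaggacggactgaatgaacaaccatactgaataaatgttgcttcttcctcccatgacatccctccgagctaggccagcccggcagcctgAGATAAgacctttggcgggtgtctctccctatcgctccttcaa
The match lies 43 bases before the start in Icam4 and Rhd, 56 in Kel and 147 in Mpp1, counted to its first base. Such a match is a description of the letters, and binding was not measured.

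The ribosome biogenesis promoters were searched in the same windows for CACGTG, the E-box bound by MYC, which reads alike on both strands. It was present in 3 of 45 matched promoters of that list (6.67%) and in 632 of all 7304 (8.65%), so the share in the list lay below that in all promoters. In the other lists searched, it was most common in heme synthesis (3 of 11, 27.3%) and erythroid transcription factors (3 of 18, 16.7%). The membrane promoters held it in 0 of 19, so shares in such small lists differed widely. Among all genes higher in KOb it was present in 99 of 777 (12.7%), and among all genes lower in 38 of 462 (8.23%). The 2 carriers of the ribosome biogenesis list with the largest rise, Nop2 (0.94 ± 0.32) and Rrn3 (0.67 ± 0.31), are shown with the match in capitals.
Nop2 (chr6:125131633-125131882, plus strand): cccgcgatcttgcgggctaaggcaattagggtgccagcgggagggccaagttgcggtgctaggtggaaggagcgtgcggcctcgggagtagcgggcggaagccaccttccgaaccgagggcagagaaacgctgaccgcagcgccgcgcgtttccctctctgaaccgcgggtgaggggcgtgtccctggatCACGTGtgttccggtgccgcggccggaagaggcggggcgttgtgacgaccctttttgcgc
Rrn3 (chr16:13780449-13780698, plus strand): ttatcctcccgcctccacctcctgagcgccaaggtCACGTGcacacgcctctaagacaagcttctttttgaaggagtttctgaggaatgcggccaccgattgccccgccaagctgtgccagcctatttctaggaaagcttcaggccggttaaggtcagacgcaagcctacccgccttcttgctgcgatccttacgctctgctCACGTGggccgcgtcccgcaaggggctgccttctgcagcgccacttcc

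Of 16 heme synthesis genes 6 were lower in KOb and 1 higher (median log2 ratio -0.31). Fech, which inserts iron into the ring, was at 775 FPKM in FFa, 651 in KOa and 427 in KOb (-0.61 ± 0.33). Levels of the mitochondrial iron importer gene Slc25a37 were 725, 499 and 319 (-0.64 ± 0.34). Cpox was highest in KOa, at 164, 341 and 222 (-0.62 ± 0.32). Tmem14c, a protein needed to bring the porphyrin precursor into the matrix, was the 1 higher member, at 399.6, 244 and 390.3 (0.68 ± 0.25). Alas2, which opens the pathway in red cells, was at 1167 and 861 FPKM and was not called. Of 22 iron genes 3 were lower and 1, the iron sensor gene Aco1 (0.61 ± 0.40), higher. The largest of these changes was in Iscu, the scaffold on which iron-sulfur clusters are built, from 232 to 106 FPKM (-1.13 ± 0.24), with 285 in FFa. The normal reading kept Iscu and no heme synthesis gene.

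Among the most abundant genes of the table, Fth1, the heavy chain of the iron store ferritin, was at 3801 and 3408 FPKM and was not called, and Cd24a, a surface antigen of immature blood cells, was at 2959 and 2547 and was not called.

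Globin genes held most of the signal in all groups: beta-globin genes were 75.7% of the summed FPKM in KOa and 52.5% in KOb, against 63.9% in FFa. Beta-s was listed at 715226 FPKM in KOa and 247300 in KOb, and Hba-a2 at 5012 and 3256, but the implied errors on the log2 ratios (-1.53 ± 1.70 and -0.62 ± 1.36) were large and neither was called. Hbb-b2 was at 37796 FPKM in FFa, 237717 in KOa and 26396 in KOb (-3.17 ± 1.93). A row that joins Hbb-b1 and Hbb-b2 went the other way between the mutant groups, at 188597, 12883 and 72150.5 FPKM (2.49 ± 5.10), and neither row was called. Near-identical globin genes share reads, so their split is uncertain. The theta globin genes Hbq1a and Hbq1b were lower, Hbq1a from 13.6 to 7.91 FPKM (-0.79 ± 0.32) and Hbq1b from 114 to 75.2 (-0.60 ± 0.23), and these were the 2 members called of 8 tested. Neither passed with the normal reading.

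Stem and early progenitor genes were higher in 8 of 25 tested and lower in 1 (median log2 ratio 0.48, 6 and 0 with the normal reading), and 12 further members had no test. Kit, the stem cell factor receptor that erythroid cells lose as they mature, was at 0.399 FPKM in FFa, 0.751 in KOa and 2.36 in KOb (log2 ratio 1.66 ± 0.42). Myb, which keeps progenitors cycling, was at 7.48, 3.61 and 8.57 (1.25 ± 0.33), and Myc, a driver of ribosome production, at 12.8, 6.2 and 13.5 (1.12 ± 0.33). Kit was highest in KOb, while for Myb and Myc KOb lay near the control and KOa below it. Eng, a TGF-beta coreceptor of early erythroid progenitors, went from 1.37 to 3.81 FPKM (1.48 ± 0.44), and Bmi1, a Polycomb gene, from 1.78 to 4.48 (1.33 ± 0.35), and the galectin gene Lgals1 from 6.84 to 16.5 (1.27 ± 0.32). Ly6a, which encodes the stem cell antigen Sca-1, was the 1 lower member (-1.17 ± 0.51). Cd34 and Gata2 were low in both mutant groups, with Cd34 at 0.609 FPKM in KOa and 0.887 in KOb and Gata2 at 1.01 and 0.939. Kit in KOa, at 0.751 FPKM, lay in the same low range.

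Of 28 erythroid transcription factor genes 8 were lower and 2, Myb and Bcl11a, higher (median log2 ratio -0.37). Zfpm1 (FOG1), the cofactor of GATA1, was at 80.5 FPKM in FFa, 112 in KOa and 65.3 in KOb (-0.78 ± 0.29). Foxo3, which drives the antioxidant program of maturing erythroblasts, was at 47.2, 44.5 and 26.7 (-0.74 ± 0.28), and Klf3, a repressor induced by KLF1, at 76.7, 111 and 70.4 (-0.66 ± 0.27). Bcl11a, the repressor of embryonic globin genes, was at 4.79, 6.71 and 10.9 (0.70 ± 0.44). Each of the 8 lower factors differed by less than 2-fold, and the normal reading kept Myb.

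**Figure D5:**
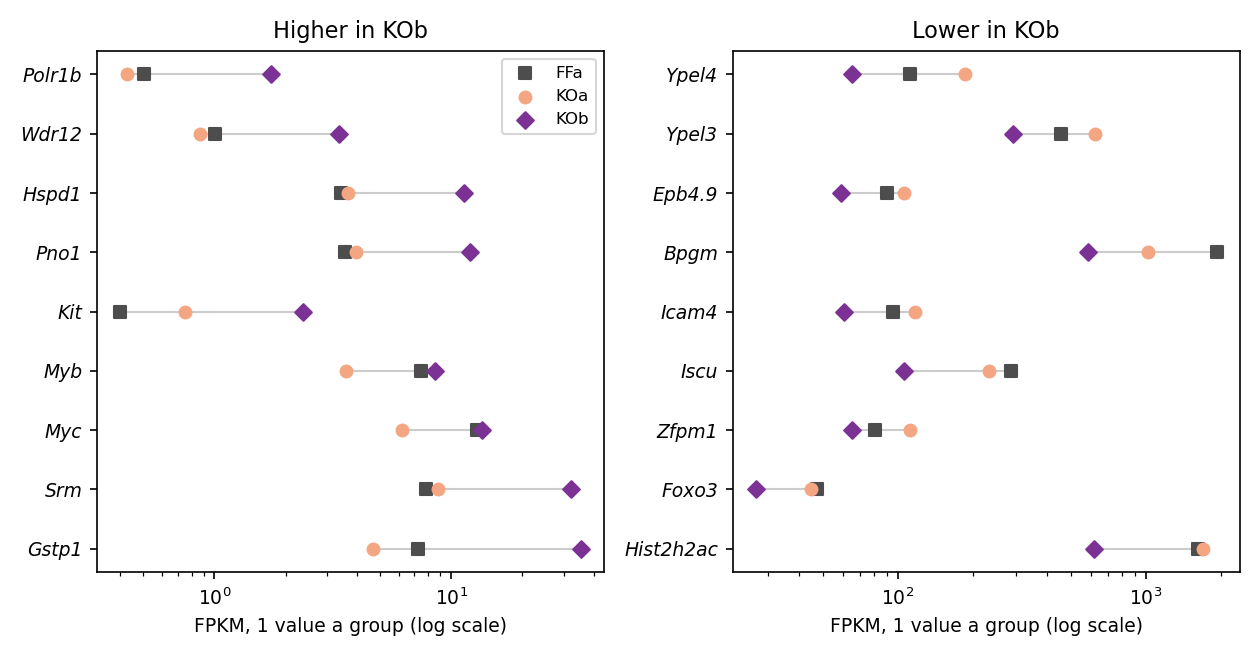
FPKM of 18 genes in control FFa (squares), KOa (circles) and KOb (diamonds) on log axes, 1 value a group, with no error since libraries were pooled. At left are genes called higher in KOb, such as Kit at 0.399, 0.751 and 2.36 FPKM in that order of groups, and at right genes called lower, such as Icam4 at 95.0, 117 and 60.3.

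Of 46 DNA replication genes 1 was higher, Rpa3 (0.82 ± 0.28), and 1 lower, Tk1 (-0.56 ± 0.32), with a median log2 ratio of 0.02; these shares are under the background. Of 44 mitosis genes 7 were lower and 0 higher (15.9%, against 6.19% of all tested genes, with a median of -0.20 and none with the normal reading), among them Ccnf (-0.61 ± 0.30), Aurka (-0.51 ± 0.27) and Plk1 (-0.51 ± 0.27). The 3 regulators of the G1 phase given next were chosen after their values were seen, so they do not stand for their class. Among other G1 genes, Cdkn1a (-0.22 ± 0.35) and Ccnd1 (-0.25 ± 0.65) were not called. Ccnd2 (0.98 ± 0.37) and Ccnd3 (0.68 ± 0.36) were higher. Cdk6 was at 3.14 FPKM in FFa, 4.47 in KOa and 13.0 in KOb (1.54 ± 0.31). The inhibitor genes Cdkn1b (p27) and Cdkn2d (p19) were lower, at 80.1 and 39.0 FPKM (-1.04 ± 0.28) and at 154 and 78.6 (-0.97 ± 0.26). Cdk6, Cdkn1b and Cdkn2d were called with the normal reading as well.

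In the list of genes that act through the EPO receptor and STAT5, 4 of 25 were higher and 4 lower (median 0.03). Stat5a went from 1.3 to 3.53 FPKM (1.44 ± 0.40) and the cyclin gene Ccnd2 from 1.02 to 2.01 (0.98 ± 0.37). Pim2, a survival kinase gene, went from 9.42 to 4.64 (-1.02 ± 0.32), and Epor from 42.6 to 31.0 (-0.46 ± 0.27). Cish was lower as well, at 15.2 FPKM in KOa and 10.4 in KOb (-0.54 ± 0.29). Ptpn6, the phosphatase SHP-1 that shuts off the receptor, rose by 0.85 ± 0.38. The list had no shared direction.

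Histone genes were lower in 25 of 67 and higher in 8 (median log2 ratio -0.45), and with the normal reading in 15 and 6. Hist1h2af was at 174 FPKM in FFa, 337 in KOa and 70.7 in KOb (log2 ratio -2.25 ± 0.19), Hist1h3e at 123, 197 and 56.1 (-1.81 ± 0.19) and Hist1h2br at 0.676, 3.55 and 0.726 (-2.29 ± 0.56). These were highest in KOa. Hist2h2ac was at 1614 FPKM in FFa, 1702 in KOa and 618 in KOb (-1.46 ± 0.17). The higher members had the opposite shape: Hist1h4k was at 195, 28.0 and 91.0 (1.70 ± 0.19), lowest in KOa, as were Hist1h2ae (1.28 ± 0.24), Hist1h3i (1.20 ± 0.22) and the variant gene H2afz (1.05 ± 0.25). Hist2h4 went from 3657 to 2061 FPKM (-0.83 ± 0.16), while the abundant genes Hist1h2bb (3936 and 4399.7 FPKM) and Hist1h2bn (3879.8 and 2850.0) had log2 ratios of 0.16 ± 0.22 and -0.45 ± 0.23. The summed FPKM of the list was 41059.6 in FFa, 26226 in KOa and 18999.9 in KOb. Clustered histone genes are short and nearly identical in places, so reads can be shared between them and single members are uncertain.

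Among Trim28, its partners and other heterochromatin and NuRD genes, 3 of 29 were higher and 1, Rbbp4 (-0.45 ± 0.30), lower (median 0.04), near the background. Setdb1 was at 1.96 FPKM in FFa, 9.9 in KOa and 17.6 in KOb (0.83 ± 0.41), lowest in the control. Cbx3, an HP1 protein, was at 9.09, 3.78 and 8.85 (1.23 ± 0.34) and Ehmt2 (G9a) at 2.56, 1.1 and 2.25 (1.04 ± 0.42), both lowest in KOa. Cbx3 passed the normal reading, and Setdb1 and Ehmt2 did not. Of 219 tested zinc finger genes named Zfp, of 367 in the table, 19 were higher and 7 lower (median 0.09), which is also near the background. The largest rise among them was in Zfp280c (1.48 ± 0.57), and Zfp593, a ribosome biogenesis factor, rose by 1.06 ± 0.59.

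Genes that were almost silent in FFa and present in both mutant groups went different ways between KOa and KOb. Those named here were picked after their values were seen. Gmpr was at 0.0731 FPKM in FFa, 37.4 in KOa and 32.2 in KOb, with a log2 ratio of -0.22 ± 0.27 that was not called. Slc1a4 (17.3 and 13.7 FPKM, -0.34 ± 0.29) and Bambi (5.25 and 5.12, -0.04 ± 0.31) were not called either. Fam159b was lower in KOb, at 0.126 FPKM in FFa, 66.7 in KOa and 29.5 in KOb (-1.18 ± 0.26). Nccrp1 was lower too, at 17.2 and 9.41 (-0.87 ± 0.31). Podxl, which encodes a sialomucin of hematopoietic progenitors, was higher in KOb, at 0.110, 2.84 and 7.05 (1.31 ± 0.32).

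In the integrated and ER stress list 7 of 30 were higher and 0 lower (median 0.02), and the members that moved were the serine synthesis genes Phgdh (1.45 ± 0.53) and Psat1 (1.09 ± 0.33), the ER folding genes Pdia4 (1.33 ± 0.38), Pdia6, Canx and Pdia3 and the ER degradation gene Edem1. Atf4, Ddit3 and Trib3 were not called, with log2 ratios of -0.37 ± 0.27, -0.20 ± 0.42 and 0.22 ± 0.51. Of 26 targets of p53, 1 was higher, Ccng1 (0.57 ± 0.29), and 1 lower, Sesn1 (-0.57 ± 0.30), with a median of -0.05. Of 42 autophagy and mitophagy genes 9 were lower and 0 higher (median -0.13, none with the normal reading), led by Atg4a (-1.04 ± 0.47), the initiating kinase gene Ulk1 (-0.70 ± 0.29) and Pink1 (-0.65 ± 0.27). Of 40 interferon response genes 7 were lower and 1 higher (median -0.10), among them the regulator Irf7 at 36.5 and 22.5 FPKM (-0.70 ± 0.31), the GTPase gene Irgm2 (-0.84 ± 0.41) and Ifitm3 (-0.68 ± 0.22). In the glycolysis list 4 of 25 were higher and 2 lower: Pgk1 went from 0.960 to 3.72 FPKM (1.95 ± 0.50) and Ldha from 14.7 to 33.0 (1.17 ± 0.31). Of 24 antioxidant genes 5 were lower and 3 higher, with the peroxiredoxin genes Prdx5 (1.05 ± 0.45) and Prdx6 (0.64 ± 0.28) higher, the sulfiredoxin gene Srxn1 lower (-0.81 ± 0.28) and Gpx1, a glutathione peroxidase gene, at 4355 and 2754 FPKM (-0.66 ± 0.34). Of the stress and metabolic genes named with a call here, the normal reading kept Pdia4, Pgk1 and Ldha.

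Proteasome genes were higher in 12 of 46 and lower in 2 (median 0.17). The catalytic subunit gene Psmb5 went from 5.95 FPKM in KOa to 17.7 in KOb (log2 ratio 1.57 ± 0.42), Psma5 rose by 1.23 ± 0.41 and the assembly factor gene Psmg3 by 0.77 ± 0.33, while Psme3, a nuclear activator subunit, was lower (-0.70 ± 0.29). Of 71 splicing genes 14 were higher and 1 lower (median 0.19), with Snrpb2 of the U2 particle at 8.86 and 14.9 FPKM (0.75 ± 0.30), Hnrnpa1 at 8.05 and 17.3 (1.10 ± 0.47), Lsm5 at 3.21 and 7.66 (1.26 ± 0.46) and Lsm7 at 17.8 and 34.8 (0.97 ± 0.25). Of 20 cytosolic aminoacyl-tRNA synthetases 6 were higher and 0 lower (median 0.29), among them Farsa (0.80 ± 0.32), Rars (0.67 ± 0.30), Eprs (0.79 ± 0.30) and Dars (0.81 ± 0.30), which load phenylalanine, arginine, glutamate with proline, and aspartate. Psmb5 and Lsm7 passed the normal reading, and the other genes named with them did not.

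Lysosome and vacuolar ATPase genes were higher in 6 of 37 and lower in 4 (median 0.08), from Atp6v0c and the cathepsin gene Ctsl (1.14 ± 0.40) to the cholesterol exporter gene Npc1 (-0.88 ± 0.54). Of 16 amino acid transporter genes 5 were lower and 2 higher (median -0.33), with Slc3a2, the heavy chain of several transporters, lower (-0.73 ± 0.30), the glycine transporter gene Slc6a9 lower (-0.69 ± 0.28) and Slc38a1, a glutamine carrier, higher (0.66 ± 0.35). Translation factor genes were higher in 8 of 42 and lower in 1 (median 0.22), led by Eif1a (1.06 ± 0.38), Eif2b5 (0.97 ± 0.36) and Eef1g (0.87 ± 0.27), and among them were the inhibitors of cap binding Eif4ebp1 (0.76 ± 0.27) and Eif4ebp2 (0.83 ± 0.29). In the list of survival and death genes 1 of 28 was higher and 1 lower. The lower one was Bcl2l1 (-0.44 ± 0.27), which encodes the survival protein BCL-XL. Of 25 cholesterol genes Hmgcs1 (0.97 ± 0.41) and Scap (0.74 ± 0.37) were higher and 0 were lower. Of 18 adhesion genes 3 were higher and 3 lower, with Itga5, the fibronectin receptor subunit, higher (0.88 ± 0.45) and Cd36, the scavenger receptor, lower (-1.23 ± 0.44). Of the genes first named in these sentences, none passed the normal reading.

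Markers of other marrow cells were present in both mutant groups, and 11 of the 12 that were called were lower in KOb. Of 19 tested macrophage and monocyte markers 5 were lower and 0 higher (median log2 ratio -0.69), and the summed level of the list was 199 FPKM in FFa, 145 in KOa and 97.0 in KOb. The complement gene C1qc went from 12.7 to 5.39 FPKM (-1.23 ± 0.33), and Csf1r, the macrophage growth factor receptor, from 1.81 to 1.06 (-0.77 ± 0.42). C1qb (-0.83 ± 0.28), Vcam1 (-0.69 ± 0.36), found on macrophages of erythroid islands, and Ly6c2 (-0.56 ± 0.25) were the other 3. Of 25 granulocyte markers 2 were lower, Lcn2 (-0.56 ± 0.25) and Stfa3 (-0.66 ± 0.23), and 0 higher, and the summed level was 49783, 17056 and 13870.3 FPKM in the same order. Most of it was S100a8, which was not called, at 14822 FPKM in KOa and 12078 in KOb. Of 16 B cell markers 1 was lower, Cd74 (-0.52 ± 0.32), of 8 dendritic cell markers 2 were lower, H2-Aa (-1.12 ± 0.37) and H2-Ab1 (-0.65 ± 0.36), and of 10 megakaryocyte markers 1 was higher, Gp5 (1.58 ± 0.54), and 1 lower, Gp9 (-0.51 ± 0.26). Among 11 T and NK cell, 11 mast cell, basophil and eosinophil and 2 stromal markers, 0 were called. No marker of these lists in the table was at 0 in KOa or KOb. The leukocyte markers that were called were lower in KOb, as were the called members of the late maturation and membrane lists.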

How the data were processed

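RNA from sorted marrow cells was turned into libraries with a NuGEN Encore Complete kit after column purification with DNase, per the labels' protocols. TopHat2 2.0.8b, Bowtie2 2.1.0 and Cuffdiff 2.1.1 with build mm10 are named in the submitters' processing notes. For annotation and scaling nothing is given in the sources used here. By its header, the table the authors deposited holds 1 FPKM value per gene and group, the log2 ratio of 2 groups (no pseudocount), a test statistic (a score for that ratio), a p-value and a q-value. The q-values of the table equal Benjamini-Hochberg values over 31813 tests of 3 comparisons (largest difference 5.27e-07, deposited against recomputed), and the smallest p, 5e-05, is shared by 437 genes of this comparison. Computed here with pandas 2.3.3 and scipy 1.17.1 were folds, implied standard errors (log2 ratio over statistic), list counts and medians, the 2-sided normal p of the statistic (the adjustment was tested on simulated data) and promoter searches, which used a RefSeq start within 100 bases of the deposited 5′ end. Among symbols whose deposited end equals that of RefSeq, 71.7% had a deposited start 1 below RefSeq's, and deposited starts were raised by 1. 42 lists, the alternatives and the naming rule (Trim28, the 12 largest rises and falls among called genes with at least 1 FPKM in the higher group, up to 4 called members per list, the 10 most abundant genes) were chosen with earlier results of these data known; other names were picked after their values were seen. Besides the 42 lists, 6 were added later. Small RNAs and rows joining several genes (85 tested, 5 called) were counted and, apart from 1 globin row, not named. A few single genes are not reported here.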

Additional observations from a re-analysis of the deposited data

Results flagged for a closer look

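In 12 genes KOa and KOb differed from the same control in opposite directions, by the q of each deposited comparison with FFa, and KOb also differed from KOa. They share the control, so the difference between the mutant groups is given as the log2 ratio of KOb over KOa. A call in that ratio was part of the choice of these genes, so it describes them and is no separate test. Lower in KOb than in KOa were Ypel4 (-1.52 ± 0.23, with 0.74 ± 0.22 in KOa and -0.78 ± 0.22 in KOb against FFa), Abi3 (-1.08 ± 0.30), a signalling adaptor gene of blood cells, and the histone genes Hist1h2af (-2.25 ± 0.19), Hist1h2ak (-1.43 ± 0.17), Hist1h2an (-1.46 ± 0.21) and Hist1h3e (-1.81 ± 0.19). Higher in KOb were Ppia, which encodes cyclophilin A (1.53 ± 0.24, with -0.57 ± 0.24 and 0.97 ± 0.23 against FFa), Cd48 (1.40 ± 0.34), Ppan, a ribosome biogenesis factor (1.50 ± 0.41), Rpl10a (1.03 ± 0.24), Suclg1 of the citric acid cycle (1.25 ± 0.36) and Tagln2 (1.34 ± 0.28). Some differences of KOa from FFa were small beside their errors. They were 0.50 ± 0.31 for Abi3, -0.64 ± 0.36 for Cd48, -0.82 ± 0.43 for Ppan and -0.65 ± 0.37 for Suclg1. For these genes the opposite directions rest on the deposited q.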

How the results depend on the processing

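More called genes were higher than lower in KOb under each setting given here, while their number moved. Against 1700 called genes (1052 higher and 648 lower), 883 (557 and 326) passed a q of 0.01, 1025 (527 higher) had at least 5 FPKM in the higher group, which moved the share of higher calls from 61.9% to 51.4%, and 459 (346 and 113) also had a fold of at least 2, which moved it to 75.4%. That last count takes in genes at 0 in one group. When the statistic was taken as standard normal 175 (122 and 53) passed, with ratios centred on the median 155 (98 and 57), and with FPKM rescaled to equal sums without globin genes 160 (106 and 54). These scalings shifted the log2 ratios by -0.05 and -0.03. Adjustment over this comparison alone gave 1487, a minimum of 1 FPKM 1589, and 1 FPKM in FFa (added after seeing the data) 1471. Trim28 was not called with adjustment over this comparison alone (q of 0.0719), with the normal reading (0.670) or with median centring (0.621). Of 169 named genes, 104 were lost with the normal reading and 5 with adjustment over this comparison alone. List medians moved in few cases. With at least 5 FPKM the median was 0.94 for progenitor genes, -0.15 for the EPO and STAT5 list, -0.054 for cholesterol genes (0.12 without), 0.15 for T and NK markers and -0.21 for polyamine genes. With at least 1 FPKM it was 0.091 for megakaryocyte and -0.59 for T and NK markers. With a pseudocount of 1 it was 0.15 for progenitor genes, -0.32 for macrophage and -0.24 for dendritic markers. No paired analysis was possible because the table holds 1 value per group, so leaving out a replicate could not be run either, and the depth per library is unknown.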

Other observations

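Further biosynthetic gene groups were looked at after the values of the table had been seen, so their counts are descriptions only. Of 32 genes of purine, pyrimidine and folate metabolism 19 were higher in KOb and 0 lower (median log2 ratio 0.66). Mthfd1, a trifunctional folate enzyme, was at 8.02 FPKM in FFa, 8.13 in KOa and 17.4 in KOb (1.10 ± 0.29), Gart, of purine synthesis, at 4.0, 2.9 and 6.3 (1.12 ± 0.33) and Cad, of pyrimidine synthesis, at 1.25, 1.21 and 2.53 (1.06 ± 0.34). Nme2, a nucleoside diphosphate kinase, was low in KOa alone, at 15.8, 4.95 and 15.2 (1.62 ± 0.50). Genes of polyamine synthesis and methionine salvage were higher in 6 of 14 and lower in 1. Srm, spermidine synthase, was at 7.81 FPKM in FFa, 8.83 in KOa and 32.1 in KOb (1.86 ± 0.29), while Smox, which oxidises spermine and is abundant in erythroblasts, was the lower member, at 245, 331 and 179 (-0.89 ± 0.56).

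RNA polymerase subunit genes were higher in 8 of 28 and lower in 1. Of the higher genes, Polr1a, Polr1b and Polr1e are also counted in the ribosome biogenesis list. The lower gene was Polr2a, the largest subunit of RNA polymerase II, at 94.1 FPKM in FFa, 120.2 in KOa and 65.9 in KOb (-0.87 ± 0.30). Polr1a (0.95 ± 0.36) of RNA polymerase I was higher, and of RNA polymerase III only Polr3d (0.81 ± 0.48) and Polr3e (0.73 ± 0.39) were called, both higher. The smaller subunit genes Polr2f (0.81 ± 0.22), Polr2g (0.59 ± 0.29) and Polr2h (2.04 ± 0.64) were higher too. Of 22 tRNA modification genes 5 were higher and 0 lower, with Nsun2, a cytosine methyltransferase, at 4.02, 3.69 and 9.11 FPKM (1.30 ± 0.31). Of 13 genes of mitochondrial translation, nucleoid and protein quality 7 were higher and 0 lower, with the prohibitin gene Phb at 3.0, 3.45 and 8.71 (1.34 ± 0.34). Of 50 helicase genes named Ddx or Dhx 10 were higher and 0 lower (median 0.34). Ddx10, Ddx18 and Ddx21 are members of the ribosome biogenesis list as well.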
